A study of Bos taurus with 37 samples.

Results

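The mitochondrial ribosomal protein genes were taken as every row of the expression table whose symbol begins with MRPL or MRPS and a digit. The rule gave 75 of the 22628 rows, each symbol occurring in 1 row. RNA was measured in single bovine blastocysts, each of which is 1 replicate, and the female and male sets were kept apart throughout because they were sequenced on separate flow cells, so that sex and flow cell cannot be told apart. The groups were donor cells (adult ear skin fibroblasts, 1 female and 1 male library), SCNT-BLs (blastocysts from somatic cell nuclear transfer, in which a donor cell was fused with an enucleated oocyte and the egg then activated; 6 female and 6 male), sham NT-BLs (blastocysts from fertilized zygotes that lost their polar bodies and the ooplasm beneath them, kept both pronuclei and were then activated chemically; 5 female and 6 male) and IVF-BLs (blastocysts from in vitro fertilization; 6 female and 6 male). SCNT-BLs of each sex were made from fibroblasts of that sex, while each sham NT-BL and IVF-BL comes from its own fertilization, and all blastocysts had passed a selection for quality by Hoechst staining.

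Mitochondria translate the messages of their own genome, which encode subunits of the respiratory chain and of ATP synthase, on a ribosome whose RNAs are made inside the organelle and whose proteins are all encoded in the nucleus and imported. MRPL genes encode proteins of the large subunit, which joins amino acids, and MRPS genes encode those of the small subunit, which holds the messenger RNA. Some of these proteins descend from bacterial ribosomal proteins and the others are found only in mitochondria. In the bovine embryo mitochondria are inherited from the oocyte, and their DNA is hardly replicated before the blastocyst stage. Roles given below are known from bacterial ribosomes and from those of human and pig mitochondria. MRPS30 and MRPS18A keep their small-subunit symbols although both proteins sit in the large subunit, and MRPS36 is now known in human as a component of the 2-oxoglutarate dehydrogenase complex rather than of the ribosome, so it was kept apart from the subunit classes.

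Values are FPKM, the authors' fragments per length of transcript, scaled to the mapped fragments of the library. Genes above 0 FPKM numbered 12318 to 15321 per blastocyst library, and the depth relative to male IVF-BL replicate 1, read from the spacing of values under 1 FPKM, ran from 0.369 to 1.45. Female SCNT-BL replicates 5 and 6 had the fewest genes (12318 and 12403), relative depths of 0.369 and 0.514, and the lowest median correlation with their own group (0.876 and 0.860), and the member counts and means that use them are also given without them. The blastocyst label held against its markers, since 7 trophectoderm markers summed to 1796 to 8521 FPKM in blastocysts, against 36.9 FPKM in female and 18.0 FPKM in male donor cells, and 8 fibroblast markers summed to 6205 FPKM in female and 10847 FPKM in male donor cells, against at most 36.1 FPKM in any blastocyst. Neither the libraries nor their amplification mark strand, and 21 of the 75 members overlap another gene in a later bovine assembly (ARS-UCD2.0, used for names and neighbours only), among them MRPL55 with GUK1, MRPS7 with MIF4GD, MRPL47 with ACTL6A, MRPS18C with ABRAXAS1, MRPS35 with REP15 and an unnamed locus, and MRPL3, MRPL22, MRPS25 and MRPS31 with unnamed loci. Reads of such partners cannot be told apart from those of the member. In whole embryos, fewer cells of a type and less RNA per cell cannot be told apart either.

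Over the 35 blastocysts the members spread widely in level. The median of the 75 mean levels was 15.6 FPKM, which 19.3% of all rows exceeded, and 73 members had a mean above 1 FPKM, 48 above 10 FPKM and 9 above 50 FPKM. Detection was not complete, as 58 members were above 0 in every blastocyst and 37 were above 1 FPKM in every blastocyst. MRPS10, a protein of the small-subunit head, was highest at 486 ± 486 FPKM (SD, n = 35), with embryos between 64.7 and 1504 FPKM. MRPS18A followed with 133 ± 35.2 FPKM, then MRPS7, another head protein, with 105 ± 44.0 FPKM, MRPL48 of the central protuberance with 79.2 ± 33.4 FPKM, and MRPL4, which lines the exit tunnel, with 76.6 ± 29.6 FPKM. At the other end stood MRPL23, which surrounds the tunnel exit, with 0.758 ± 2.00 FPKM and 21 of 35 embryos listed at 0, MRPS26 with 0.915 ± 1.34 FPKM, MRPS36 with 1.33 ± 2.17 FPKM, MRPS34 with 1.43 ± 1.77 FPKM and MRPS16 with 1.60 ± 4.80 FPKM. The order from MRPL23 to MRPS16 is not larger than the spread between embryos. FPKM are per length of transcript, so proteins that the ribosome holds in equal number were listed at mean messenger levels from 0.758 to 486 FPKM.

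**Figure D1:**
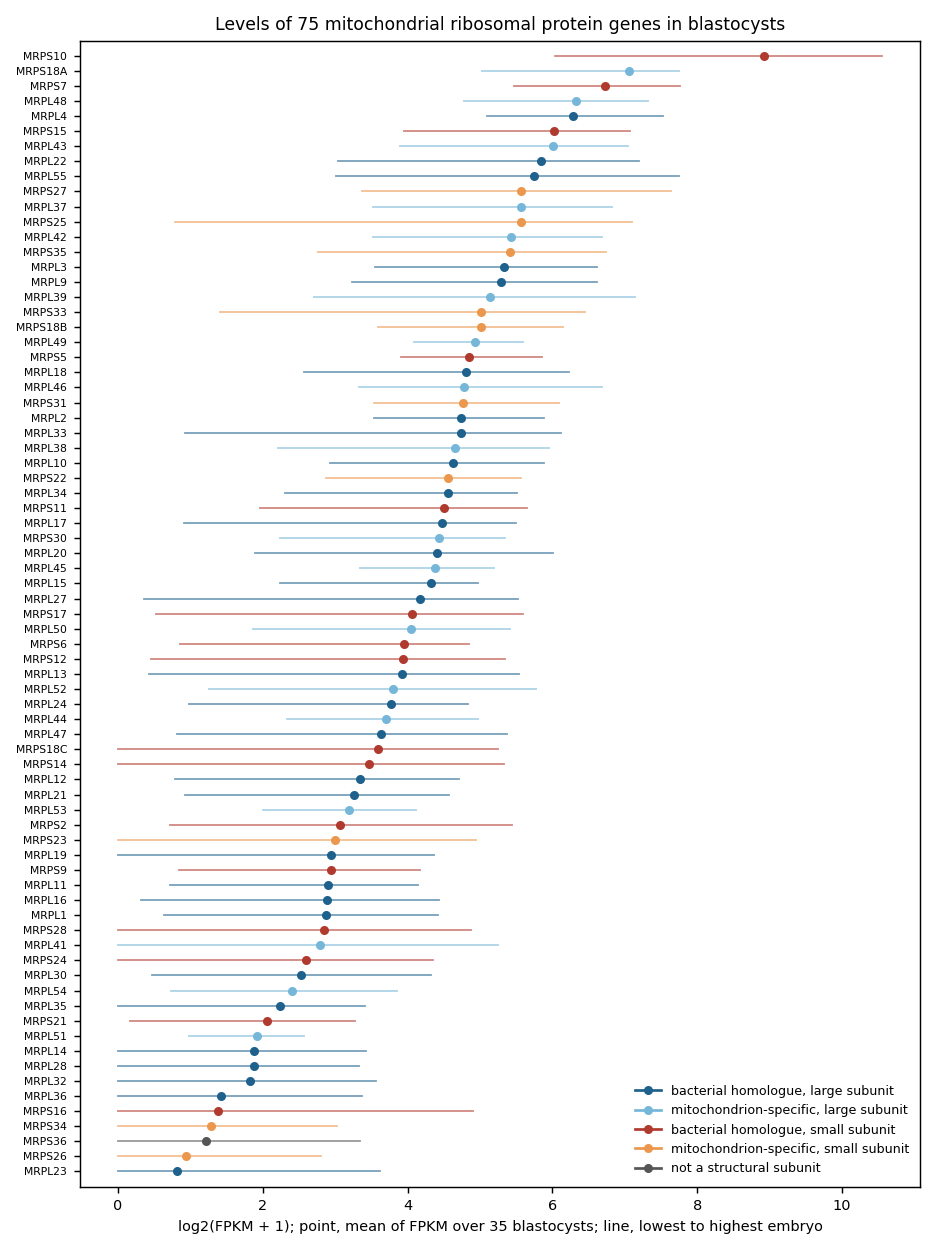
Levels of the 75 genes in 35 blastocysts on a log2(FPKM + 1) axis, ranked by mean; each point is the mean of FPKM, each line runs from the lowest to the highest embryo, and colours give the subunit class. MRPS10 stands highest (mean 486 FPKM) and MRPL23 lowest (mean 0.758 FPKM), and the classes are mixed along the ranking.

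The classes overlapped in level. The 10 mitochondrion-specific small-subunit genes had a median of means of 28.8 FPKM (0.915 to 46.3 FPKM) and the 18 mitochondrion-specific large-subunit genes one of 22.4 FPKM (2.78 to 133 FPKM). The 30 large-subunit genes with a bacterial homologue had a median of 13.4 FPKM (0.758 to 76.6 FPKM) and the 16 such small-subunit genes one of 12.7 FPKM (1.60 to 486 FPKM). Among IVF-BLs, the steadiest members with a mean above 1 FPKM were MRPL46, with a coefficient of variation of 17.5% in females and 13.6% in males, MRPS18A (25.3% and 17.2%), MRPL43 (29.3% and 14.2%) and MRPL3, which lies near the peptidyl transferase centre (18.7% and 29.0%). The least steady were MRPS24 (115% and 86.5%), MRPS21 (85.4% and 114%), MRPS36 (113.5% and 85.9%) and MRPL36 (97.4% and 98.6%), whose means were 5.03, 3.16, 1.33 and 1.69 FPKM. The median coefficient of variation of the members was 54.5% in female SCNT-BLs, 47.6% in female sham NT-BLs and 44.0% in female IVF-BLs, and 39.2% in male SCNT-BLs, 50.4% in male sham NT-BLs and 43.0% in male IVF-BLs. Without replicates 5 and 6 the value in female SCNT-BLs was 31.99%. Over all genes with a mean above 1 FPKM the medians ran from 39.9% in male SCNT-BLs to 49.4% in male sham NT-BLs, higher than that of the members in male SCNT-BLs and lower in the other 5 groups. Among genes within the members' interquartile range of level, the 37 members there had medians of 39.1% in female sham NT-BLs to 54.1% in female SCNT-BLs, against 35.5% to 46.3% over all genes there, lower than all genes in female sham NT-BLs and higher in the other 5 groups.

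The mean over all 75 genes was higher in sham NT-BLs than in IVF-BLs of the same sex, and without MRPS10 it was not. The mean was 24.4 ± 5.23 FPKM in female SCNT-BLs, 36.9 ± 4.06 FPKM in female sham NT-BLs and 24.8 ± 3.07 FPKM in female IVF-BLs (SD, n = 6, 5 and 6). In males it was 24.3 ± 2.52 FPKM in SCNT-BLs, 40.3 ± 4.77 FPKM in sham NT-BLs and 26.8 ± 1.81 FPKM in IVF-BLs (n = 6 each). Without replicates 5 and 6 the female SCNT-BLs averaged 21.6 ± 1.78 FPKM (n = 4). Every sham NT-BL, from 30.02 FPKM up in females and from 33.2 FPKM up in males, stood above every IVF-BL of its sex (at most 28.6 and 29.3 FPKM), whereas the ranges of SCNT-BLs and IVF-BLs overlapped. MRPS10 alone made up 3.49% to 22.0% of the members' sum in SCNT-BLs, 28.1% to 46.2% in sham NT-BLs and 6.06% to 16.2% in IVF-BLs. Without MRPS10, which was left out after its values were seen, the mean of the other 74 genes was 21.4 ± 2.98 FPKM in female SCNT-BLs, 22.7 ± 0.787 FPKM in female sham NT-BLs and 22.4 ± 3.28 FPKM in female IVF-BLs. The male means were 23.4 ± 2.67 FPKM in male SCNT-BLs, 24.5 ± 3.60 FPKM in male sham NT-BLs and 24.7 ± 1.78 FPKM in male IVF-BLs, so that the groups of each sex overlapped. The female SCNT-BLs other than replicates 5 and 6 averaged 20.3 ± 1.49 FPKM, and overlapped both other female groups as well. The median over the 75 genes was lower in male sham NT-BLs, at 11.4 ± 2.08 FPKM, against 16.6 ± 1.11 FPKM in male IVF-BLs. The donor cells had a mean over all members of 30.1 FPKM in females and 24.6 FPKM in males, the male one inside the range of the male SCNT-BLs (21.5 to 28.4 FPKM) and the female one inside that of the female SCNT-BLs (20.0 to 34.1 FPKM). Only female SCNT-BL replicate 5, at 34.1 FPKM, exceeded 30 FPKM among the SCNT-BLs.

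**Figure D2:**
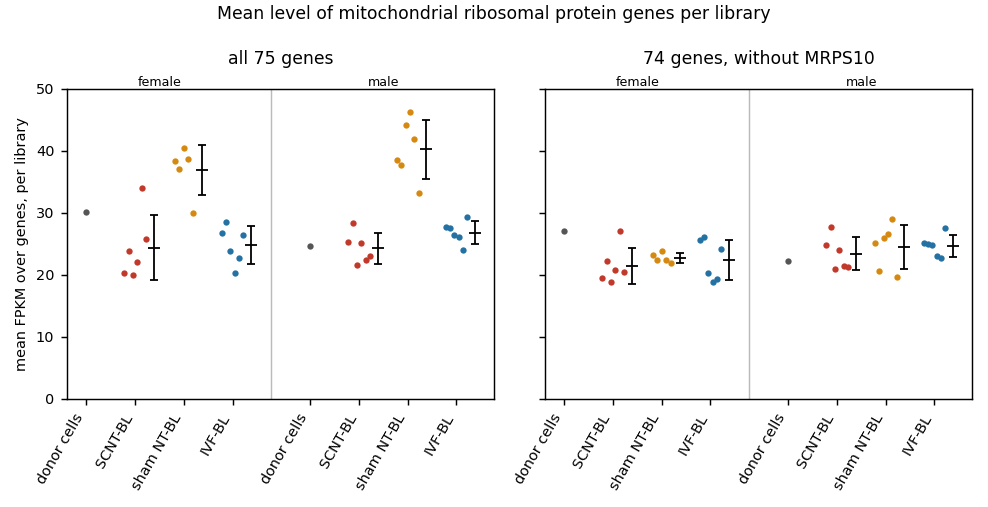
Mean FPKM per library over all 75 genes (left) and over 74 genes without MRPS10 (right); points are libraries, and black marks are the group mean and SD. With MRPS10 the sham NT-BLs average 36.9 FPKM in females and 40.3 FPKM in males, above all IVF-BLs of their sex; without it they average 22.7 FPKM in females and 24.5 FPKM in males, and overlap the IVF-BLs.

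Sham NT-BLs were compared with IVF-BLs to see what the manipulation and activation did to embryos that kept their own genome. In females 6 members were higher and 12 lower in sham NT-BLs, that is 24.0% of the 75, where limma called 13.5% of the 15259 genes tested, 7.03% higher and 6.47% lower (18% of those with a mean above 1 FPKM, where most members lie). Without the filter on low values, 13 members were called, 12 of them the same, where 1644 of 22628 genes were called. With the replicate number as a block 9 were called, 7 of them the same, where 1306 of the 15259 genes were. The members' median difference of log2(FPKM + 1) was -0.27, against -0.09 over all genes tested. MRPS10 had 1163, 1122, 1272, 1250 and 632 FPKM in the 5 sham NT-BLs, against 122, 202 and 287 FPKM (lowest, median and highest) in the 6 IVF-BLs. The groups did not overlap, the sham NT-BL of 632 FPKM included, and their means, 1088 ± 262 FPKM and 203 ± 70.6 FPKM, stood 5.37-fold apart (log2 difference 2.45, SE 0.28, adjusted p = 7.7e-05). MRPL39, which resembles part of a threonyl-tRNA synthetase, had 45.0, 114, 109, 141 and 46.3 FPKM in sham NT-BLs, against 7.79, 13.3 and 25.9 FPKM in IVF-BLs, again with no overlap (log2 difference 2.52, SE 0.35, adjusted p = 0.000312).

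The other 4 members that were higher in female sham NT-BLs belong to both subunits. MRPS17, a small-subunit protein with a bacterial homologue, had 15.8 to 31.5 FPKM in sham NT-BLs, against 1.34 to 8.81 FPKM in IVF-BLs, without overlap (log2 difference 2.51, SE 0.40, adjusted p = 0.000759). MRPL55 averaged 76.02 ± 22.5 FPKM in sham NT-BLs, against 33.9 ± 9.64 FPKM in IVF-BLs (1.13, SE 0.26, adjusted p = 0.0102). Its groups overlapped at sham NT-BL replicate 2 (41.0 FPKM) and IVF-BL replicate 2 (47.5 FPKM). MRPL52 (1.73, adjusted p = 0.0393) and MRPS11 of the small-subunit platform (0.91, adjusted p = 0.0461) overlapped between the groups, and each lost its call when any of 7 of the 11 embryos was left out, with adjusted p up to 0.112 and 0.116.

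Of the 12 members that were lower in female sham NT-BLs, 9 belong to the large subunit, as do 48 of all 75 members. MRPL10, which anchors the stalk that recruits translation factors, had 13.6, 6.62, 7.28, 7.61 and 11.5 FPKM in sham NT-BLs, against 20.1, 30.6 and 46.7 FPKM in IVF-BLs (log2 difference -1.64, SE 0.27, adjusted p = 0.000947). MRPL1, the protein of the mobile L1 stalk at the tRNA exit site, had 0.922, 1.28, 0.890, 0.550 and 0.952 FPKM in sham NT-BLs, against 2.69, 7.91 and 15.3 FPKM in IVF-BLs (-2.17, SE 0.40, adjusted p = 0.00209). Both pairs of groups were apart, and for MRPL1 the sham NT-BLs were near the lowest levels the table lists. MRPS2, a small-subunit protein with a bacterial homologue, had 0.641 to 2.87 FPKM in sham NT-BLs, against 3.02 to 14.3 FPKM in IVF-BLs (-1.66, SE 0.41, adjusted p = 0.0134). MRPL13 (-1.69, adjusted p = 0.0201), MRPS34 (-1.66, adjusted p = 0.0165) and MRPL20, whose bacterial homologue acts early in assembly (-1.53, adjusted p = 0.0489), overlapped between the groups. MRPL20 was no longer called when any of 8 of the 11 embryos was left out (adjusted p up to 0.132), and MRPL13 when sham NT-BL replicate 2 or 4 was (up to 0.0546). The remaining 6, MRPL3, MRPL15, MRPL28, MRPL37, MRPS30 and MRPS35, had log2 differences from -1.32 to -1.02, and of these MRPL28 and MRPS35 lost their calls in 6 and 7 of the 11 leave-outs. In all, 11 of the 75 members did not overlap between the female groups, where 9.02% of genes tested did not.

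In males 8 members were higher and 14 lower in sham NT-BLs, 29.3% of the 75, where limma called 12.1% of the 14902 genes tested, 6.13% higher and 5.96% lower (16.2% of those with a mean above 1 FPKM). Without the filter on low values, which adds genes to the adjustment, 13 of these 22 calls were made, where 1435 of 22628 genes were called. The members' median log2 difference was -0.15, against -0.02 over all genes. MRPS10 had 998, 1170 and 1504 FPKM (lowest, median and highest) in sham NT-BLs, against 119, 182 and 253 FPKM in IVF-BLs. All 6 sham NT-BLs lay above all 6 IVF-BLs, at means of 1210 ± 221 FPKM and 183 ± 50.6 FPKM, a 6.60-fold difference (log2 difference 2.74, SE 0.22, adjusted p = 7e-06). MRPL39 had 29.6, 61.8 and 103 FPKM in sham NT-BLs, against 5.54, 13.0 and 18.1 FPKM in IVF-BLs, without overlap (2.17, SE 0.33, adjusted p = 0.000514).

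Among the other members that were higher in male sham NT-BLs, MRPL27, whose bacterial homologue reaches into the peptidyl transferase centre, had 16.3, 30.9 and 45.0 FPKM, against 0.288, 9.95 and 16.3 FPKM in IVF-BLs (log2 difference 1.96, SE 0.51, adjusted p = 0.0187). MRPL54 had 3.53 to 13.5 FPKM in sham NT-BLs, against 0.664 to 3.44 FPKM in IVF-BLs (1.48, SE 0.36, adjusted p = 0.0126). These groups did not overlap, although for MRPL27 the nearest embryos of both lay at about 16.3 FPKM. MRPL55 averaged 106 ± 60.4 FPKM in sham NT-BLs, against 34.7 ± 10.6 FPKM in IVF-BLs (1.45, SE 0.32, adjusted p = 0.00709). Its groups overlapped at sham NT-BL replicate 2 (43.7 FPKM) and IVF-BL replicate 6 (51.8 FPKM). MRPL33 (1.498, adjusted p = 0.0317), MRPL47 (1.21, adjusted p = 0.0254) and MRPS18B (0.79, adjusted p = 0.0486) overlapped and lost their calls in 4, 6 and 9 of the 12 fits that left out an embryo.

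The 14 members lower in male sham NT-BLs included MRPS2, with 0.749, 1.18 and 1.80 FPKM in sham NT-BLs, against 5.20, 13.98 and 27.7 FPKM in IVF-BLs (log2 difference -2.73, SE 0.36, adjusted p = 0.000169). MRPS25, a mitochondrion-specific small-subunit protein, had 0.732, 11.9 and 69.1 FPKM in sham NT-BLs, against 53.3, 80.3 and 137 FPKM in IVF-BLs, where 5 sham NT-BLs were below all IVF-BLs and replicate 3, at 69.1 FPKM, was not (-2.73, SE 0.62, adjusted p = 0.00786). MRPL24, which lies at the tunnel exit, had 0.972, 2.43 and 7.63 FPKM in sham NT-BLs, against 5.75, 22.4 and 25.8 FPKM in IVF-BLs, overlapping only at sham NT-BL replicate 1 and IVF-BL replicate 4 (-2.31, SE 0.42, adjusted p = 0.00195). MRPL20, without overlap, differed by -1.87 (SE 0.40, adjusted p = 0.00535). MRPL41 (-1.90, adjusted p = 0.0496) and MRPL28 (-1.62, adjusted p = 0.0302) overlapped and lost their calls in 8 and 6 of the 12 leave-outs. MRPL43, a mitochondrion-specific large-subunit protein, had 24.6, 33.0 and 83.4 FPKM in sham NT-BLs, against 86.9, 124 and 130 FPKM in IVF-BLs, without overlap (-1.49, SE 0.28, adjusted p = 0.0024). The other 7, MRPL3, MRPL10, MRPL13, MRPL37, MRPS22, MRPS30 and MRPS34, had log2 differences from -1.55 to -1.04. Of these, MRPS22 and MRPS34 lost their calls in 6 leave-outs each, and MRPS34 was listed at 0 in 5 of the 6 sham NT-BLs. Of the 75 members 9 did not overlap between the male groups, where 6.62% of genes tested did not.

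Both sexes shared many of these calls. Called in the same direction in both were 12 members, which is 66.7% of the 18 called in females and 54.5% of the 22 called in males, and 0 were called in opposite directions. Over all genes tested in both sexes, 795 calls were shared in direction, 38.6% of the female list and 44.3% of the male list, and 16 were opposite. The female and male comparisons use different embryos. The shared members were MRPS10, MRPL39 and MRPL55, which were higher in sham NT-BLs, and MRPL3, MRPL10, MRPL13, MRPL20, MRPL28, MRPL37, MRPS2, MRPS30 and MRPS34, which were lower. MRPS30 shows the pattern of the second group, with 9.05 to 14.4 FPKM in female sham NT-BLs, against 15.9 to 34.0 FPKM in female IVF-BLs, and 3.70 to 11.5 FPKM in male sham NT-BLs, against 9.65 to 37.7 FPKM in male IVF-BLs, the last pair overlapping only at IVF-BL replicate 4. MRPL3 likewise had 13.8 to 32.5 FPKM in female sham NT-BLs, against 32.8 to 51.5 FPKM in female IVF-BLs, and 10.8 to 29.2 FPKM in male sham NT-BLs, against 25.03 to 53.5 FPKM in male IVF-BLs, where 1 sham NT-BL reached into the IVF-BL range. Both subunits, and both proteins with bacterial homologues and those without, were among the calls in each direction. By class, the large subunit had 3 members higher and 9 lower in females and 6 higher and 10 lower in males, and the small subunit 3 and 3 in females and 2 and 4 in males.

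**Figure D3:**
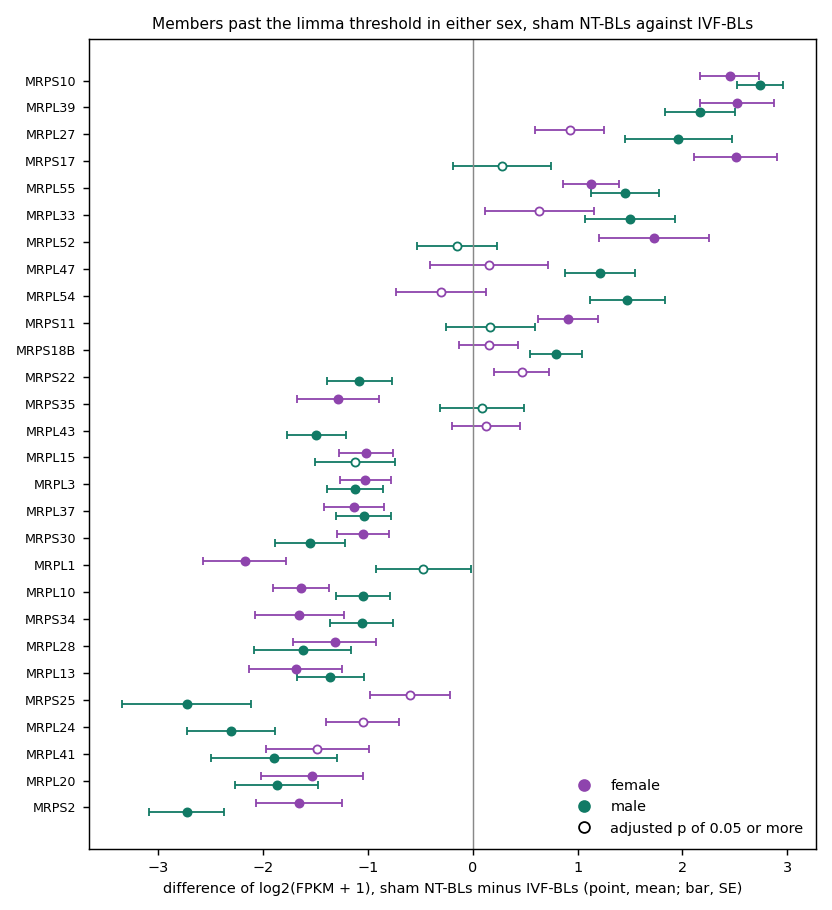
Difference of log2(FPKM + 1), sham NT-BLs minus IVF-BLs, for the members past the limma threshold in either sex; points are means, bars are SE, and open points did not pass. MRPS10 (2.45 in females, 2.74 in males) and MRPL39 (2.52 and 2.17) are far to the right in both sexes, MRPS2 (-1.66 and -2.73) is far to the left, and 12 members are filled on the same side in both sexes.

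Other measures moved with the sham NT-BLs. Their relative depths were 0.429 to 0.824 in females and 0.536 to 0.801 in males, against 0.871 to 1.45 in female and 0.779 to 1 in male IVF-BLs. The 5 inner cell mass and epiblast markers summed to 47.4 to 73.0 FPKM in female sham NT-BLs, against 78.6 to 197 FPKM in female IVF-BLs, and to 18.2 to 86.8 FPKM in male sham NT-BLs, against 77.2 to 107 FPKM in male IVF-BLs. All 5 of these markers had a mean above 1 FPKM in each blastocyst group. A sum does not give the direction of each marker. Trophectoderm sums were 3216 to 5869 FPKM in female sham NT-BLs, against 1796 to 8521 FPKM in IVF-BLs. In males they were 3244 to 6581 FPKM, against 4812 to 6794 FPKM. Primitive endoderm sums were 104 to 329 FPKM, against 139 to 300 FPKM, in females. In males these were 87.0 to 273 FPKM, against 105 to 244 FPKM. The part of depth and of cell types in the member differences was not tested.

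Genes that serve the mitochondrial ribosome were called in both directions. Of 26 rows for assembly factors, 3 were higher and 2 lower in female sham NT-BLs and 5 and 0 in male ones. ERAL1, a GTPase that chaperones the small-subunit RNA, was higher in both, at 155 FPKM in female sham NT-BLs, against 52.3 FPKM in IVF-BLs (log2 difference 1.57, adjusted p = 0.000501), and at 226 FPKM in male ones, against 80.5 FPKM (1.41, adjusted p = 0.000953). NGRN, which takes part in large-subunit assembly, and the GTPase GTPBP10 were higher in both sexes as well, by 1.53 and 1.68 in females and 1.78 and 1.77 in males. Of 16 mitochondrial aminoacyl-tRNA synthetases, which charge the tRNAs of the organelle, 2 were higher and 2 lower in females and 5 and 1 in males. FARS2, the enzyme for phenylalanine, was lower in both, at 4.94 FPKM in female sham NT-BLs, against 25.7 FPKM in IVF-BLs (-2.30, adjusted p = 0.000823), and at 3.83 FPKM in male ones, against 26.6 FPKM (-2.57, adjusted p = 0.000176), whereas SARS2, for serine, was higher in both (0.95, adjusted p = 0.00432, and 1.29, adjusted p = 0.000953). Of the translation factors, GUF1, an elongation factor, was higher in females (1.76, adjusted p = 0.00916), and in male sham NT-BLs MTIF2, the initiation factor, was higher (1.23, adjusted p = 0.0453) and TACO1, an activator of COX1 translation, lower (-1.52, adjusted p = 0.0018). The 8 ribosomal subunits that carry other symbols, such as DAP3 and PTCD3, gave 0 calls of 7 tested in females and 1 of 8 in males, where ICT1, the peptidyl-tRNA hydrolase built into the large subunit, was lower (-1.23, adjusted p = 0.043).

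Of 12 genes listed for mitochondrial content, 1 was higher and 3 were lower in sham NT-BLs of each sex. Mitochondrial content itself was not measured. PHB, a scaffold of the inner membrane, reached 5662 FPKM in female sham NT-BLs, against 384 FPKM in IVF-BLs (log2 difference 3.60, adjusted p = 7.7e-05), and 3372 FPKM in male sham NT-BLs, against 607 FPKM (2.14, adjusted p = 0.00224). Its partner PHB2 was lower in both (-1.64, adjusted p = 0.00111, and -0.86, adjusted p = 0.0386), as was the outer-membrane channel VDAC1 (-1.28, adjusted p = 0.0349, and -1.62, adjusted p = 0.00535). The chaperone HSPA9 was lower in females (231 FPKM, against 369 FPKM in IVF-BLs; -0.68, adjusted p = 0.0279) and CS, the citrate synthase, in males (193 FPKM, against 432 FPKM; -1.25, adjusted p = 0.00411). Of 75 oxidative phosphorylation subunits tested, 11 were higher and 5 lower in female sham NT-BLs and 9 and 19 in male ones, with medians of 0.14 and -0.08. Of 85 cytosolic ribosomal proteins tested, 12 were higher and 18 lower in females and 7 and 29 in males, with medians of -0.28 and -0.58. Over all genes tested in these comparisons, limma called 13.5% in females and 12.1% in males, and over the members 24% and 29.3%. Of 13 messages of the mitochondrial genome itself that were looked for by symbol, 0 were found among the rows, so they were not analysed here.

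SCNT-BLs were compared with IVF-BLs to see how embryos that carry a reprogrammed somatic genome differ from fertilized ones. In females 0 of the 75 members were called by limma (0.321% of the 15256 genes tested were called, 0.21% higher and 0.111% lower, and 0.44% of those with a mean above 1 FPKM), and none of the members separated the groups, where 1.38% of genes did. At an unadjusted p below 0.05 there were 6 members, MRPL34 higher and MRPL22, MRPL33, MRPL41, MRPS33 and MRPS34 lower in SCNT-BLs, named after their values were seen. Of all genes tested 10.9% passed that mark. The members' median log2 difference was -0.13, against -0.04 over all genes. Without SCNT-BL replicates 5 and 6 it was -0.04, and again 0 members were called. With all 6 blastocyst groups in 1 fit, MRPS34 was called lower, where 136 of the 15256 genes were called. MRPS10 had 86.7, 149, 110, 125, 556 and 425 FPKM in the 6 SCNT-BLs, against 122, 202 and 287 FPKM in IVF-BLs. Replicates 5 and 6, at 556 and 425 FPKM, were above every IVF-BL, and the other SCNT-BLs lay between 86.7 and 149 FPKM, within or below the IVF-BL range.

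In males 4 members were higher and 6 lower in SCNT-BLs, 13.3% of the 75, where limma called 6.98% of the 14906 genes tested, 3.34% higher and 3.64% lower (9.42% of those with a mean above 1 FPKM). The members' median log2 difference was 0.05, against -0.01 over all genes. MRPL43 had 27.5, 34.2, 13.9, 22.8, 23.2 and 29.3 FPKM in the SCNT-BLs, against 130, 129, 112, 86.9, 129 and 119 FPKM in the IVF-BLs. Every SCNT-BL lay below 35 FPKM and every IVF-BL above 86 FPKM, at means of 25.1 ± 6.92 FPKM and 118 ± 16.7 FPKM (log2 difference -2.22, SE 0.20, adjusted p = 2.47e-05). MRPS2 had 0.899, 2.27, 4.57, 1.49, 1.02 and 2.06 FPKM in SCNT-BLs, against 13.6, 14.4, 5.20, 27.7, 12.4 and 15.7 FPKM in IVF-BLs. The groups came near each other only at SCNT-BL replicate 3 and IVF-BL replicate 3, and differed by -2.34 on the log2 scale (SE 0.38, adjusted p = 0.00178). MRPL20 had 3.48 to 16.2 FPKM in SCNT-BLs, against 19.1 to 59.3 FPKM in IVF-BLs, without overlap (-1.70, SE 0.35, adjusted p = 0.00912).

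MRPS10 was lower in male SCNT-BLs, with 64.7, 82.1 and 150 FPKM (lowest, median and highest), against 119, 182 and 253 FPKM in IVF-BLs, overlapping only at SCNT-BL replicate 6 (log2 difference -1.01, SE 0.23, adjusted p = 0.0153). MRPL37, mitochondrion-specific, had 32.3 to 48.4 FPKM in SCNT-BLs, against 52.9 to 96.0 FPKM in IVF-BLs (-0.75, SE 0.18, adjusted p = 0.0205), and its adjusted p was 0.0501 without IVF-BL replicate 2. MRPL18, which lies at the central protuberance, overlapped between the groups (-1.28, adjusted p = 0.0302) and lost its call in 7 of 12 leave-outs, with adjusted p up to 0.0673.

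Of the 4 members that were higher in male SCNT-BLs, MRPS35 alone separated the groups, with 61.3, 69.3 and 106 FPKM in SCNT-BLs, against 23.1, 36.2 and 51.9 FPKM in IVF-BLs (log2 difference 1.07, SE 0.22, adjusted p = 0.00849). MRPL19 had 1.75, 8.51 and 19.6 FPKM in SCNT-BLs, against 0, 1.70 and 3.23 FPKM in IVF-BLs (1.88, adjusted p = 0.0264), MRPS18C, the counterpart of bacterial S18, had 7.90, 25.2 and 37.1 FPKM, against 0.395, 4.74 and 19.7 FPKM (1.82, adjusted p = 0.0478), and MRPL50 had 7.58, 30.4 and 34.9 FPKM, against 4.92, 9.44 and 15.8 FPKM (1.35, adjusted p = 0.047). In each of these the lowest SCNT-BL lay within the range of the IVF-BLs, and the calls were lost in 4, 9 and 8 of the 12 leave-outs, with adjusted p up to 0.0611, 0.0988 and 0.102. In all, 5 members did not overlap between the groups, where 4.27% of genes tested did not. Without IVF-BL replicate 2, without SCNT-BL replicate 1, without the filter on low values or with all 6 blastocyst groups in 1 fit, 6 members were called. Over all genes tested, these fits called 723, 709, 746 and 867, against 1040 in the main fit. The members' median was negative without IVF-BL replicates 1, 4 or 5 or SCNT-BL replicate 2, in turn, and lowest at -0.07.

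The female and male differences between SCNT-BLs and IVF-BLs were compared directly by an interaction term. Sex, flow cell and donor fibroblasts cannot be told apart in it, because SCNT-BLs of each sex came from donor cells of that sex. Past the threshold, 4 members (5.33% of the 75) differed, where 1.91% of 15425 genes did, 1.06% higher and 0.849% lower (2.58% of those with a mean above 1 FPKM). MRPL43 differed by 2.18 (female minus male; SE 0.32, adjusted p = 0.000679): it had 43.0, 53.9 and 96.2 FPKM in female SCNT-BLs, against 36.1, 62.5 and 80.5 FPKM in female IVF-BLs, and the male groups stood apart as given above. MRPS2 differed by 2.82 (SE 0.62, adjusted p = 0.0199), with 4.51, 9.63 and 42.6 FPKM in female SCNT-BLs, against 3.02, 7.58 and 14.3 FPKM in female IVF-BLs, the highest value being that of SCNT-BL replicate 6. For both genes the female groups overlapped throughout, and the term was also past the threshold without female SCNT-BL replicates 5 and 6 (1.96, adjusted p = 0.00218, and 2.65, adjusted p = 0.0228). MRPL33, a large-subunit protein with a bacterial homologue, differed by -2.95 (adjusted p = 0.0399), with 0.898, 5.98 and 12.3 FPKM in female SCNT-BLs, against 3.99, 17.3 and 48.1 FPKM in female IVF-BLs, and 21.5, 34.4 and 67.9 FPKM in male SCNT-BLs, against 2.95, 15.4 and 32.1 FPKM in male IVF-BLs. MRPS35 differed by -1.20 (adjusted p = 0.0436), with 23.4 to 46.0 FPKM in female SCNT-BLs, against 28.3 to 51.2 FPKM in female IVF-BLs. Neither of these was past the threshold without female SCNT-BL replicates 5 and 6 (adjusted p = 0.0869 and 0.0766), and they lost it in 13 and 17 of the 24 leave-outs of a single embryo.

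**Figure D4:**
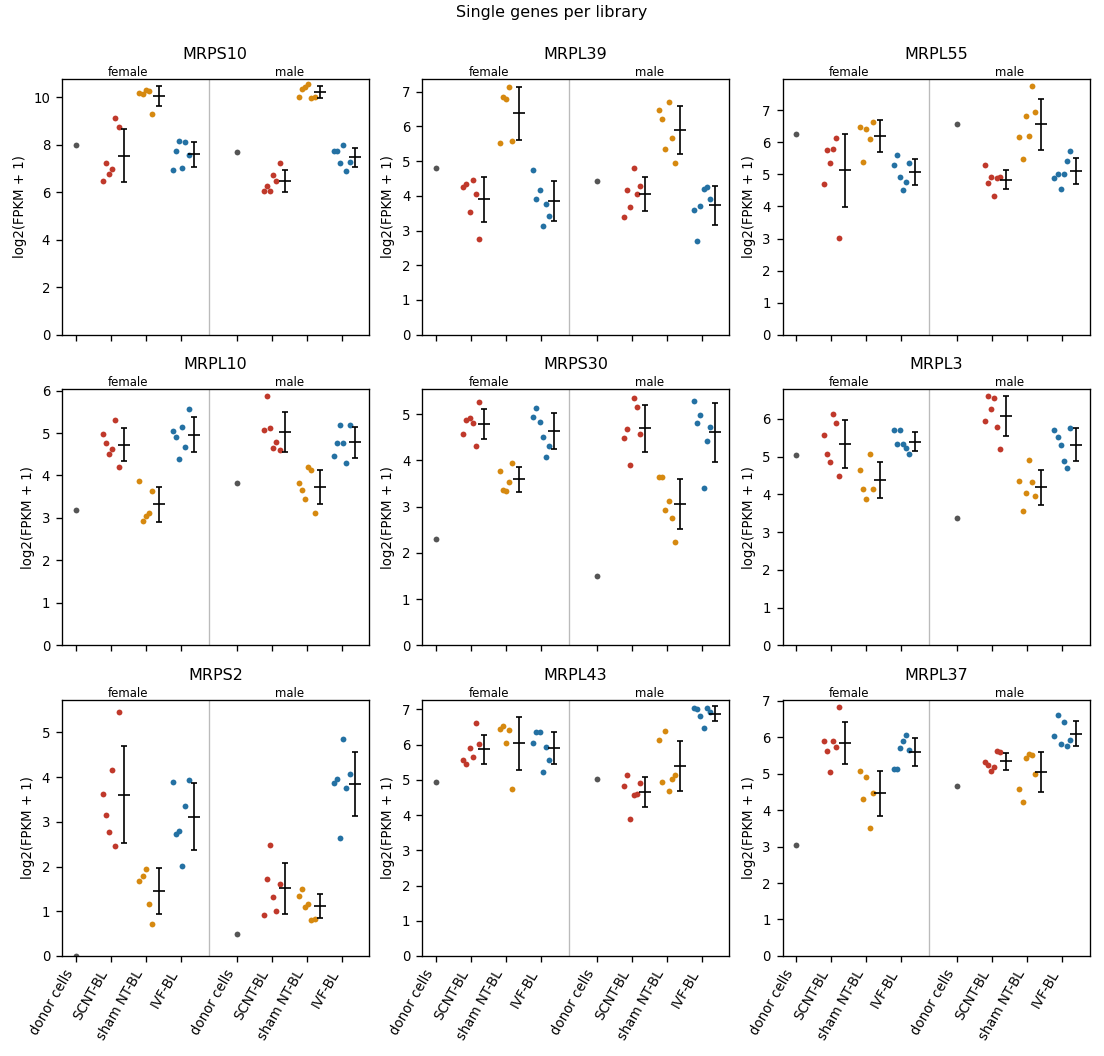
Levels of 9 genes per library on a log2(FPKM + 1) axis, female groups on the left and male groups on the right of each panel; points are libraries, and black marks are the group mean and SD of the log2 values. MRPS10 and MRPL39 are highest in sham NT-BLs of both sexes, MRPL10, MRPS30 and MRPL3 have their lowest blastocyst means there, and MRPL43 is below 35 FPKM in all male SCNT-BLs, against above 86 FPKM in all male IVF-BLs.

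SCNT-BLs were also compared with sham NT-BLs, which were also micromanipulated and chemically activated but kept the genome of the zygote. The sham NT-BLs are the same embryos as in the comparison with IVF-BLs, so the lists of both comparisons are not independent and were not set against each other. In females 6 members were higher and 4 lower in SCNT-BLs, 13.3% of the 75, where limma called 11.3% of the 15116 genes tested, 5.21% higher and 6.07% lower, and 15.1% of those with a mean above 1 FPKM. The members' median log2 difference was 0.07, against 0.04 over all genes. MRPS10 had 86.7, 137 and 556 FPKM in SCNT-BLs (lowest, median and highest), against 1163, 1122, 1272, 1250 and 632 FPKM in sham NT-BLs, without overlap (log2 difference -2.50, SE 0.44, adjusted p = 0.00227). Without SCNT-BL replicates 5 and 6, which were nearest to the sham NT-BLs, the difference was -3.18 (adjusted p = 2.53e-05). MRPL39 had 5.81, 16.7 and 20.8 FPKM in SCNT-BLs, against 45.0 to 141 FPKM in sham NT-BLs (-2.48, SE 0.37, adjusted p = 0.000846). MRPL33 (-2.13, adjusted p = 0.0146) and the tunnel protein MRPL22 (-2.03, adjusted p = 0.00735) were lower as well, each with overlap.

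Those higher in female SCNT-BLs were MRPS2, MRPL28, MRPL1, MRPL10, MRPL37 and MRPS30. MRPL10 had 17.3, 24.9 and 38.5 FPKM in SCNT-BLs, against 6.62 to 13.6 FPKM in sham NT-BLs (log2 difference 1.41, SE 0.28, adjusted p = 0.00413), and MRPS30 had 18.9, 27.7 and 37.4 FPKM, against 9.05 to 14.4 FPKM (1.20, SE 0.24, adjusted p = 0.00527). MRPS2 had 4.51 to 42.6 FPKM in SCNT-BLs, against 0.641 to 2.87 FPKM in sham NT-BLs (2.14, SE 0.49, adjusted p = 0.011). All 3 separated the groups, as did MRPL1 (1.47, adjusted p = 0.0417), whereas MRPL37 (1.38, adjusted p = 0.013) and MRPL28 (1.61, adjusted p = 0.028) did not. MRPL1 and MRPL28 lost their calls in 9 and 4 of the 11 leave-outs. In all, 6 members did not overlap, where 8.48% of genes tested did not. Without SCNT-BL replicates 5 and 6, 13 members were called, among them all 10 given here, and the members' median was 0.26. That fit called 1718 of 15108 genes. With all 6 blastocyst groups in 1 fit 16 were called, where 2377 of the 15116 genes tested were.

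In males 14 members were higher and 7 lower in SCNT-BLs than in sham NT-BLs, 28.0% of the 75, where limma called 11.8% of the 14783 genes tested, 5.67% higher and 6.13% lower (15.7% of those with a mean above 1 FPKM). The members' median log2 difference was 0.26, against 0.01 over all genes, and by class it ran from 0.01 for the 16 small-subunit genes with a bacterial homologue to 0.78 for the 10 mitochondrion-specific ones, of which 4 were higher and 1 lower. MRPS10 had 66.3, 75.7, 64.7, 104, 88.6 and 150 FPKM in SCNT-BLs, against 1022, 1309, 1398, 1504, 998 and 1031 FPKM in sham NT-BLs. Every SCNT-BL lay at or below 150 FPKM and every sham NT-BL at or above 998 FPKM, and the log2 difference was -3.75 (SE 0.23, adjusted p = 2.47e-07). MRPL39 had 9.41, 16.1 and 26.9 FPKM in SCNT-BLs, against 29.6, 61.8 and 103 FPKM in sham NT-BLs (-1.84, SE 0.32, adjusted p = 0.00135). MRPL55 (-1.72, adjusted p = 0.00196), MRPL27 (-1.65, adjusted p = 0.00157) and MRPS18B (-1.40, adjusted p = 0.00399) were lower without overlap too. MRPL46 (-1.16, adjusted p = 0.0289) and MRPL9 (-0.77, adjusted p = 0.0413) overlapped and lost their calls in 6 and 9 of the 12 leave-outs.

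Of the 14 members that were higher in male SCNT-BLs, the largest differences were those of MRPS25, MRPS28, MRPS18C, MRPL3, MRPS36 and MRPL24. MRPS28, with a bacterial homologue, had 6.71, 10.5 and 28.3 FPKM in SCNT-BLs, against 0.279, 1.73 and 6.46 FPKM in sham NT-BLs (log2 difference 2.10, SE 0.44, adjusted p = 0.00478). MRPL3 had 36.0, 68.4 and 97.1 FPKM, against 10.8, 17.2 and 29.2 FPKM (1.88, SE 0.28, adjusted p = 0.000435). Both separated the groups. MRPS25 had 40.8, 55.5 and 82.9 FPKM in SCNT-BLs, against 0.732, 11.9 and 69.1 FPKM in sham NT-BLs, where sham NT-BL replicate 3 was the only one in the SCNT-BL range (2.23, adjusted p = 0.0251), and its call was lost in 3 of 12 leave-outs. MRPL24 (1.67, adjusted p = 0.0141) overlapped and kept its call in all 12 leave-outs. MRPS18C (1.98, adjusted p = 0.0269) and MRPS36 (1.72, adjusted p = 0.0419), the dehydrogenase component, overlapped and lost their calls in 8 and 9 of 12. The others were MRPL1, MRPL10, MRPL13, MRPL15, MRPS23, MRPS30, MRPS31 and MRPS34, with log2 differences from 1.18 to 1.64. Of the 75 members 13 did not overlap, where 6.39% of genes tested did not.

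Beside these, 24 of 86 cytosolic ribosomal proteins were higher and 12 lower in male SCNT-BLs than in sham NT-BLs, with a median of 0.53, and 11 and 15 in females, with a median of -0.01. ERAL1 was lower in SCNT-BLs of both sexes, at 52.5 FPKM, against 155 FPKM in sham NT-BLs, in females (log2 difference -1.55, adjusted p = 0.000591) and at 105 FPKM, against 226 FPKM, in males (-1.05, adjusted p = 0.0108). SLIRP, a partner of LRPPRC that stabilizes mitochondrial messages, was lower in both (-2.35, adjusted p = 0.00274, and -1.29, adjusted p = 0.0166), and so was PHB (-3.53, adjusted p = 0.000295, and -1.81, adjusted p = 0.00687). Its partner PHB2 was higher in both (1.43, adjusted p = 0.00138, and 1.12, adjusted p = 0.00849). In all, 1 of the 12 mitochondrial content genes was higher and 2 were lower in females, HSPD1 being the other lower one (-0.91, adjusted p = 0.031), and 3 were higher and 1 lower in males, with CS (1.06, adjusted p = 0.0127) and VDAC1 (1.82, adjusted p = 0.00162) higher. Of the oxidative phosphorylation subunits, 2 of 76 were higher and 13 lower in females, with a median of -0.28, and 12 of 75 were higher and 8 lower in males, with a median of 0.14. Assembly factors gave 4 higher and 3 lower of 26 in females and 0 and 2 in males, and the synthetases 1 and 1 of 16 in females and 1 and 3 in males. FARS2 was higher in SCNT-BLs of both sexes (2.79, adjusted p = 0.00102, and 2.11, adjusted p = 0.000845). Against IVF-BLs, male SCNT-BLs had 1 of 17 translation factors lower, SLIRP (862 FPKM, against 1781 FPKM; -1.09, adjusted p = 0.0134), 0 of 26 assembly factors and 0 of 16 synthetases called, and HSPA9, the mitochondrial import chaperone, higher (397 FPKM, against 201 FPKM; 0.96, adjusted p = 0.00357). PPRC1, a coactivator of nuclear genes for mitochondria, was lower (-0.68, adjusted p = 0.0176) and MTERF, a transcription terminator, higher (1.52, adjusted p = 0.0227). Of the oxidative phosphorylation subunits 6 of 75 were higher and 10 lower in male SCNT-BLs than in IVF-BLs, and of the cytosolic ribosomal proteins 7 of 86 were higher and 21 lower, with medians of -0.10 and -0.07. In females 0 genes of these lists were called between SCNT-BLs and IVF-BLs.

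The donor cells, 1 library per sex and so without a test, were set beside the SCNT-BLs made from them. The female donor library lay above all 6 female SCNT-BLs for 29 members and below all of them for 19, where 36.5% and 22.8% of 15578 genes with a mean above 0.1 FPKM did. The male donor library lay above all 6 male SCNT-BLs for 17 members and below for 24, where 36.9% and 23.3% of 15285 genes did. The median log2 difference of donor cells minus SCNT-BLs was 0.28 over the members in females and -0.18 in males, against 0.12 and 0.10 over all genes. In both sexes 13 members were above every SCNT-BL and 13 were below, where 27.4% and 16.6% of 14413 genes with a mean above 0.1 FPKM in both sexes were. Set against the 4 female SCNT-BLs other than replicates 5 and 6, the female donor library lay above all for 33 members and below all for 22, where 41.9% and 29.3% of 15638 genes did. Above and below in both sexes there were then 15 and 14 members. The share over all genes was not taken for these last counts. With 4 embryos the range is narrower, so their rise from 13 and 13 cannot be read as a result about the members.

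Among those above, MRPL12, the stalk protein that contacts translation factors, had 46.0 FPKM in female donor cells, against 4.30, 12.5 and 17.1 FPKM in female SCNT-BLs, and 77.3 FPKM in male donor cells, against 0.723, 6.38 and 11.2 FPKM in male SCNT-BLs. MRPS12, of the decoding centre, had 189 FPKM in female donor cells, against at most 22.7 FPKM in female SCNT-BLs, but 15.4 FPKM in male donor cells, against at most 12.8 FPKM in male SCNT-BLs. MRPL18 and MRPL20 were also above in both. The others were MRPL2, MRPL9, MRPL14, MRPL22, MRPL52, MRPL54, MRPL55, MRPS5 and MRPS21.

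Among those below, MRPL4 had 7.47 FPKM in female donor cells, against 82.5 to 183 FPKM in female SCNT-BLs, and 9.78 FPKM in male donor cells, against 33.2 to 74.4 FPKM in male SCNT-BLs. MRPS25 had 5.59 FPKM in female donor cells, against 14.7 to 75.3 FPKM in female SCNT-BLs, and 1.89 FPKM in male donor cells, against 40.8 to 82.9 FPKM in male SCNT-BLs. MRPS30 had 3.93 FPKM, against 18.9 to 37.4 FPKM, in females and 1.83 FPKM, against 14.02 to 39.5 FPKM, in males. MRPS2 was listed at 0 in the female donor library and at 0.395 FPKM in the male one. The others were MRPL1, MRPL10, MRPL15, MRPL28, MRPL37, MRPL48, MRPL50, MRPS7 and MRPS31. MRPS10 had 255 FPKM in female donor cells, within the range of the female SCNT-BLs, and 204 FPKM in male donor cells, against at most 150 FPKM in male SCNT-BLs. Of the members called between male SCNT-BLs and IVF-BLs, MRPS2, MRPL37 and MRPL50 lay on the low side in the donor cells of both sexes. MRPL18 and MRPL20 lay on the high side in both. MRPL50 was higher in male SCNT-BLs than in IVF-BLs, while the other 4 were lower. Of all 75 members, 13 lay above and 13 below in both sexes. The same male SCNT-BLs enter the calls and the donor positions, so the positions are not independent of the calls. A link between them was not tested. MRPL43 had 29.4 FPKM in the female donor library, below every female SCNT-BL, and 31.2 FPKM in the male one, within the range of the male SCNT-BLs (13.9 to 34.2 FPKM).

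**Figure D5:**
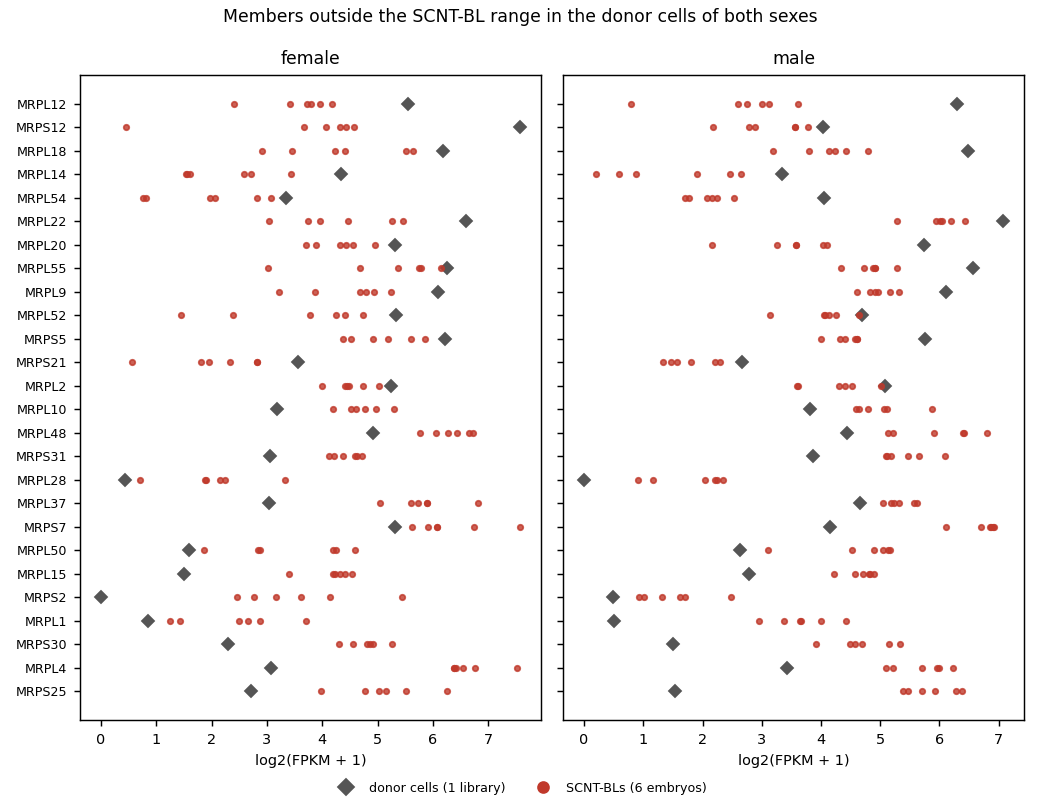
The 26 genes whose donor library lay outside the range of the 6 SCNT-BLs on the same side in both sexes, on a log2(FPKM + 1) axis; diamonds are the donor library and circles the SCNT-BLs. MRPL12 stands farthest above in males (77.3 FPKM, against at most 11.2 FPKM), MRPS12 in females (189 FPKM, against at most 22.7 FPKM), and MRPL4, MRPS25 and MRPS30 lie below in both.

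Members that the comparisons did not single out include several with a central part in the ribosome. MRPL12 averaged 11.8 FPKM in female SCNT-BLs, 8.92 FPKM in female sham NT-BLs and 11.5 FPKM in female IVF-BLs, and 6.24 FPKM in male SCNT-BLs, 9.73 FPKM in male sham NT-BLs and 6.58 FPKM in male IVF-BLs, with log2 differences between -0.44 and 0.62 and adjusted p from 0.477 to 0.958 over the 6 comparisons. That stands beside MRPL10, on which MRPL12 is mounted and which was lower in sham NT-BLs of both sexes. MRPL44, with a fold of ribonuclease III, averaged 14.3 FPKM in female SCNT-BLs, 16.1 FPKM in female sham NT-BLs and 9.65 FPKM in female IVF-BLs, and 8.71 FPKM in male SCNT-BLs, 15.5 FPKM in male sham NT-BLs and 8.64 FPKM in male IVF-BLs. It passed in none of the 6 (adjusted p from 0.195 to 0.987). MRPS12 passed in none either (adjusted p from 0.0999 to 0.953), nor did MRPS16, whose female sham NT-BLs were listed between 0 and 1.85 FPKM but for replicate 2 at 28.8 FPKM. MRPS22, mitochondrion-specific, averaged 17.2 FPKM in male sham NT-BLs, against 35.4 FPKM in male IVF-BLs, and was called there (-1.08, adjusted p = 0.0301) and in no other comparison.

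The 3 relatives of bacterial S18 differed in their levels across the groups. MRPS18A, in the large subunit, had group means of 97.4 to 168.5 FPKM in blastocysts and no call in the 6 comparisons (adjusted p from 0.145 to 0.853). MRPS18B, mitochondrion-specific and in the small subunit, averaged 19.3 FPKM in male SCNT-BLs, 50.9 FPKM in male sham NT-BLs and 29.0 FPKM in male IVF-BLs. Its female means were 26.0 FPKM in SCNT-BLs, 34.3 FPKM in sham NT-BLs and 29.2 FPKM in IVF-BLs. MRPS18C, which takes the place of S18 itself, averaged 23.0 FPKM in male SCNT-BLs, 7.66 FPKM in male sham NT-BLs and 7.39 FPKM in male IVF-BLs. Its female means were 11.9 FPKM in SCNT-BLs, 11.3 FPKM in sham NT-BLs and 5.11 FPKM in IVF-BLs. Male sham NT-BL replicate 5, at 28.1 FPKM of MRPS18C, stood apart from the other 5, which had 1.07 to 8.85 FPKM. MRPS36 was listed at 0 in 15 of the 35 blastocysts and had 10.2 FPKM in female donor cells and 7.46 FPKM in male donor cells.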

How the data were processed

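Single blastocysts and fibroblast samples were lysed, poly-A RNA was amplified with random primers that keep no strand, and libraries were sequenced on an Illumina HiSeq2500, female and male samples on separate flow cells. According to the study's methods and the submitters' processing notes, the authors trimmed reads with Trim Galore, aligned them with TopHat (bovine assembly UMD 3.1), and then used Cufflinks and Cuffdiff to obtain FPKM; versions are not given in the sources used here. The deposited table holds these FPKM values for 37 libraries, with no counts. The study reports sequencing depth in its supplement, but the values were not available here, and only a relative depth could be read from the spacing of low values. FPKM are scaled to the total of each library, so a few very abundant genes can shift the rest.

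Values were transformed to log2(FPKM + 1), and a fold change on that scale understates the change of low genes. For each comparison of 2 groups, genes with a mean above 0.1 FPKM in the samples compared were fitted with limma 3.58.1 in R 4.3.3 (lmFit, then eBayes with a trend), and p-values were adjusted by Benjamini-Hochberg over all genes tested, with a threshold of 0.05, two-sided. The fits of male SCNT-BLs and of female sham NT-BLs against IVF-BLs were run on simulated data. Noise there was independent between genes and without depth differences, so that run does not bear on such features of the libraries. The study compared groups with Cuffdiff, which needs reads. Each embryo is 1 replicate.

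The members and gene lists were chosen with earlier results of these data known. Members are named where they passed the threshold (the 6 with the largest differences where more than 8 passed in a direction), where they were among the 5 highest or 5 lowest, or the 4 steadiest or least steady, and 13 were named in any case (MRPL3, MRPL10, MRPL12, MRPL44, MRPS2, MRPS12, MRPS16, MRPS18A, MRPS18B, MRPS18C, MRPS22, MRPS30 and MRPS36). Alternatives were another pseudocount (0.1), a filter at 1 FPKM and no filter, median centring, quantile normalization, 1 fit over all blastocyst groups, the replicate number as a block, and leaving out each embryo in turn.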

Additional observations from a re-analysis of the deposited data

Results flagged for a closer look

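In 18 of 222 groups of embryos tested for the members named in the comparisons, 1 embryo stood farther from the rest than the 95% critical value of Dixon's test allows. The test was applied to FPKM, not to log2 values. Its rate of about 1 in 20 by chance assumes normally distributed values, so the 18 cannot be set against it. The female SCNT-BLs had 3 of these. Replicate 6 had 42.6 FPKM of MRPS2, against 4.51 to 16.7 FPKM in the others, and 112 FPKM of MRPL37, against 31.9 to 58.5 FPKM. Replicate 2 had 9.09 FPKM of MRPL28, against at most 3.76 FPKM. In male SCNT-BLs replicate 3 was high for MRPS2 (4.57 FPKM, against at most 2.27 FPKM) and MRPL13 (45.5 FPKM, against at most 20.7 FPKM), replicate 2 for MRPL10 (57.8 FPKM, against at most 33.8 FPKM) and replicate 4 for MRPS28 (28.3 FPKM, against at most 14.2 FPKM).

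Among female sham NT-BLs, replicate 5 had the lowest MRPS10, 632 FPKM, against 1122 FPKM or more in the others, and the highest MRPL54, 6.43 FPKM, against at most 3.35 FPKM. Male sham NT-BL replicate 5 was high for MRPS18C (28.1 FPKM, against at most 8.85 FPKM), MRPL28 (5.81 FPKM, against at most 1.03 FPKM) and MRPS34 (0.655 FPKM, where the others were listed at 0), and replicate 3 for MRPS25 (69.1 FPKM, against at most 23.3 FPKM). Among female IVF-BLs, replicate 1 was high for MRPL20 (63.6 FPKM, against at most 31.6 FPKM) and MRPL47 (12.1 FPKM, against at most 4.67 FPKM), replicate 2 was low for MRPL50 (3.802 FPKM, against 11.3 FPKM or more) and replicate 3 for MRPS25 (14.4 FPKM, against 39.4 FPKM or more). Male IVF-BL replicate 4 was low for MRPL24 (5.75 FPKM, against 21.1 FPKM or more).

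The difference between SCNT-BLs and IVF-BLs itself differed between females and males, by limma's interaction term, for MRPL43 (2.18, female minus male), MRPS2 (2.82), MRPL33 (-2.95) and MRPS35 (-1.20). Sex, flow cell and donor fibroblasts cannot be told apart in this term.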

How the results depend on the processing

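Of the values recomputed under the alternatives, 654 stayed on their side of the threshold or near the value given, 89 of single members kept their direction but were no longer called, and 27 counts or ratios moved. The tolerance was wide. A count still passed as near when it fell from 18 to 13, as between female sham NT-BLs and IVF-BLs without a filter. A median or ratio passed when it moved by less than the spread between embryos. No named member changed direction, but all 4 ratios of the members' level that involve sham NT-BLs crossed 1 with the median over members (in males against IVF-BLs also without MRPS10), the ratio of female SCNT-BLs to IVF-BLs, 0.983, was 1.04 with that median and up to 1.02 with 1 embryo left out, and the members' median in male SCNT-BLs against IVF-BLs changed sign when some single embryos were left out. With all 6 blastocyst groups in 1 fit, 1 member was called between female SCNT-BLs and IVF-BLs (MRPS34, adjusted p = 0.0364), 6 between male SCNT-BLs and IVF-BLs and 16 between female SCNT-BLs and sham NT-BLs. Over all genes tested, these fits called 136, 867 and 2377. Without a filter on low values, 6 were called between male SCNT-BLs and IVF-BLs, 13 between male sham NT-BLs and IVF-BLs and 2 in the female minus male term. Over all 22628 genes, these fits called 746, 1435 and 226. Leaving out 1 embryo at a time gave 6 to 12 between male SCNT-BLs and IVF-BLs and 2 to 4 in the female minus male term, which had 2 without female SCNT-BL replicates 5 and 6, left out after their values were seen. The genes called in these fits numbered 709 to 970, 147 to 311 and 181. With the replicate number as a block, 9 members were called between female sham NT-BLs and IVF-BLs and 2 in the female minus male term, where 1306 and 241 genes were called. Embryos of the same number did not deviate together (correlations between -0.239 and 0.0758), so the numbers were not taken to pair them. The cause of these changes was not tested. For the mean over the members, the ratio of sham NT-BLs to IVF-BLs, 1.49 in females and 1.502 in males, was 0.982 with the median over members and 1.02 without MRPS10 in females, and 0.685 and 0.991 in males. The ratio of SCNT-BLs to sham NT-BLs was 1.06 and 0.942 in females, and 1.36 and 0.955 in males, against 0.659 and 0.603 with the mean, and was 0.892 in females without MRPS10 and without SCNT-BL replicates 5 and 6. MRPS10 was left out after its values were seen. Depth in reads was not available here, so a gene listed at 0 may lie below what a library could show.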
